A study of Homo sapiens with 12 samples.

Results

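Immune checkpoint ligands are surface or secreted proteins through which a tumour cell restrains T cells, natural killer cells or macrophages. Transcripts of 10 such genes were followed, out of 20375 genes measured by RNA sequencing in PE/CA-PJ41, a human oral squamous cell carcinoma line. The members were chosen by name, as CD274 (PD-L1), PDCD1LG2 (PD-L2), CD276, VTCN1, HHLA2, NECTIN2, PVR, LGALS9, CD47 and TNFRSF14. Untreated cells (control) were compared with cells given plasma from human blood at 10% for 48 h, and with cells given platelet-rich plasma (PRP) at 10% for 48 h. Each group had 4 libraries of polyadenylated RNA from the same line. The labels give the controls no culture time and do not tie replicates to separate cultures, and the spread that p-values rest on may be technical.

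PD-L1 and PD-L2 bind the receptor PD-1 on activated T cells and dampen signalling from the T cell receptor. CD276, VTCN1 and HHLA2 are further members of the B7 family to which both belong. NECTIN2 and PVR are adhesion proteins that the inhibitory receptor TIGIT and the activating receptor CD226 compete for. LGALS9 (galectin-9) binds TIM-3, CD47 gives macrophages an inhibitory signal through SIRPA, and TNFRSF14 (HVEM) engages BTLA. Interferon gamma, acting through the kinases JAK1 and JAK2 and the transcription factor IRF1, is the best known inducer of PD-L1 in carcinoma cells.

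Libraries held 36258955 to 41976136 estimated reads. Markers of squamous epithelium (KRT5, KRT14, TP63 and 6 others) were present in every library and summed to 11545 to 15769 TPM, where TPM is a share of all transcripts after correction for length. Among 12 leukocyte markers, MS4A1, FCGR3A and NKG7 were among those that had 0 reads in every library. The list summed to 4.03 to 5.16 TPM in control and to more in treated libraries (plasma 6.19 to 7.63, PRP 5.96 to 8.03). CD14, a lipopolysaccharide co-receptor, was its single tested gene and rose from 1.79 to 4.89 and 5.49 TPM. PTPRC, the pan-leukocyte marker CD45, averaged 0.621 TPM in control, against 0.0935 (plasma) and 0.0491 (PRP), and ITGAM 1.02, 0.733 and 0.774. Platelet markers summed to at most 0.872 TPM, with PF4 and GP9 at 0 reads throughout. Among 5 endothelial markers CDH5 averaged 9.44 TPM in control, against 25.4 (plasma) and 24.6 (PRP), VWF 7.28, 7.95 and 7.25, and the other genes stayed under 1 TPM, with TIE1 at 0. Their sum was 12.4 to 24.1 TPM in control, 30.5 to 38.1 for plasma and 29.5 to 35.4 for PRP. Fibroblast markers summed to 16.3 to 21.8, 13.8 to 17.2 and 12.8 to 14.6 TPM, of which LUM averaged 8.40, 3.87 and 3.42. COL1A1, the most abundant of them, went the other way, at 8.88, 11.1 and 9.46 TPM. Of 3 tested fibroblast markers 1 was called as lower with plasma and 2 with PRP, where 29.0% and 31.5% of all genes tested were. The part of these transcripts in the results below was not tested. In bulk RNA, fewer cells of a type and less RNA per cell cannot be told apart.

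The ligands spanned a wide range of levels. In control, mean TPM ran from 114 for CD47 and 99.8 for CD276, through 43.5 for NECTIN2, 36.0 for PVR, 20.9 for LGALS9 and 11.9 for both VTCN1 and TNFRSF14, to 3.48 for CD274, 1.06 for PDCD1LG2 and 0.420 for HHLA2. VTCN1 and TNFRSF14 overlapped between libraries, and every other pair of neighbours in that order was separated. CD47 and CD276 together made up 61.3% to 62.9% of the summed TPM of the 10 genes in control, and CD274 0.930% to 1.06%. With plasma and with PRP, LGALS9 stood above PVR and VTCN1 stood above TNFRSF14 in all libraries.

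Of the 10 genes 9 passed the filter of at least 1 TPM in at least 4 libraries, and HHLA2 did not. With limma on log2(TPM + 1), at an adjusted p under 0.05 over 12517 genes, 3 of the 9 rose with plasma (LGALS9, VTCN1 and NECTIN2) and 1 fell (PVR). Those 4 are 44.4% of the 9, against 49.3% of all genes tested in that comparison, 20.3% higher and 29.0% lower. With PRP those 4 genes were called in the same directions, where 53.1% of all genes tested were called, 21.7% higher and 31.5% lower. TPM did not overlap between groups for 4 of the 9 with plasma and 5 with PRP, against 43.9% and 46.8% of all genes tested. From reads, limma's voom under median-of-ratios scaling called 5 of the 9 with plasma and 6 with PRP, against 56.7% and 60.3%. A share so near the background is not a result about the ligands as a set. The median log2 difference of the 9 genes was 0.09 with plasma and 0.11 with PRP, beside -0.050 and -0.057 over all genes tested. Both treatments were compared with the same control libraries, so their differences are not independent of each other.

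**Figure D1:**
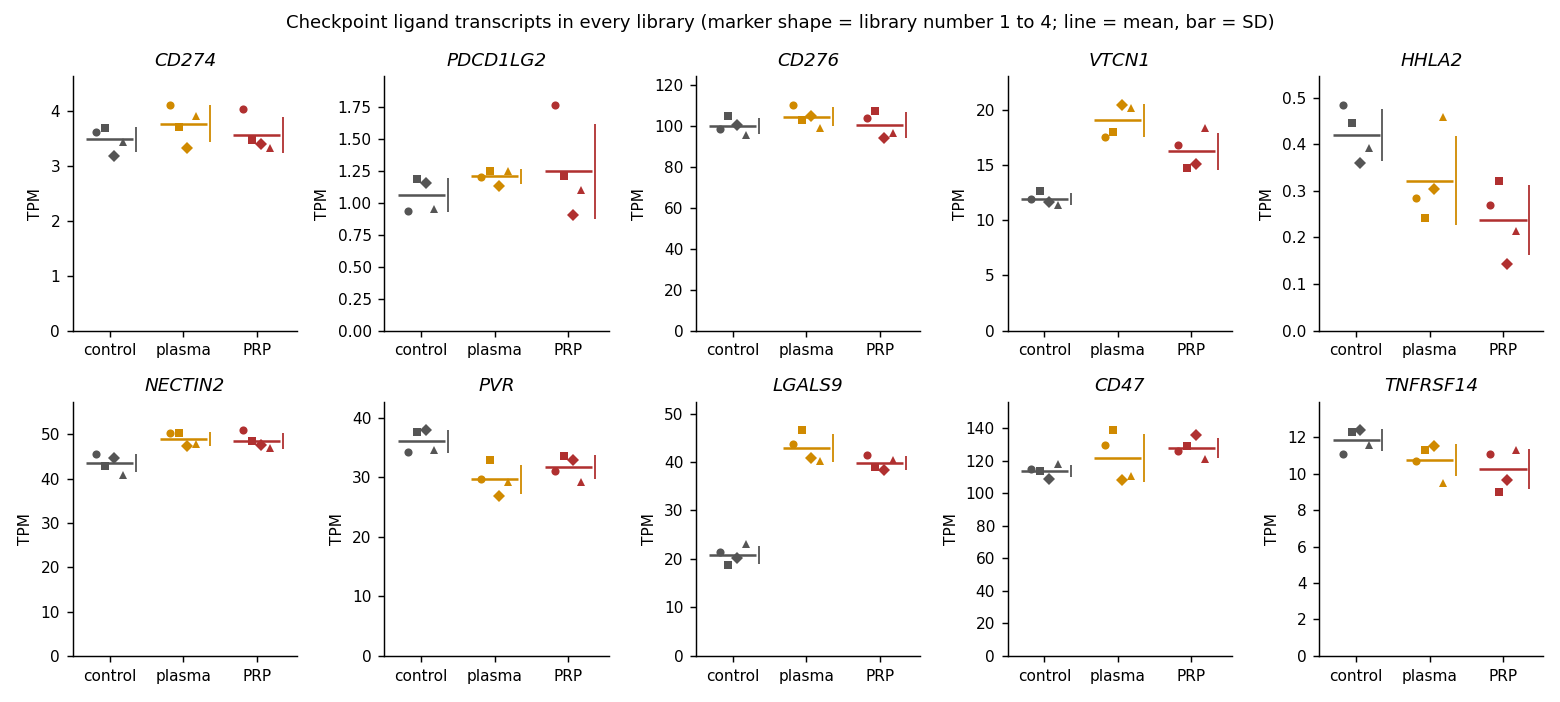
TPM of the 10 ligand genes in each of 12 libraries, by group on the x axis, with marker shape for the library number, a line for the mean and a bar for the SD (n = 4). LGALS9 and VTCN1 libraries lie higher with plasma and PRP than in every control library, and PVR libraries lie lower. CD274 groups overlap, with all 12 libraries at 3.17 to 4.11 TPM.

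PD-L1 mRNA stayed within the spread of the libraries. CD274 (chromosome 9, 5450542 to 5470554, GRCh38) was at 3.61, 3.69, 3.17 and 3.44 TPM in control libraries 1 to 4. It was at 4.11, 3.71, 3.32 and 3.90 TPM with plasma and at 4.04, 3.46, 3.40 and 3.32 with PRP. The 3 groups overlapped, and the libraries numbered 1 were the highest of the plasma and PRP groups. The log2 difference from control was 0.09 for plasma (95% interval -0.09 to 0.27, adjusted p = 0.412) and 0.02 for PRP (-0.16 to 0.20, adjusted p = 0.831). These intervals leave room for a change of up to 0.27 on that scale and do not show equal levels. Each CD274 value rested on 289 to 368 estimated reads. Counted as reads, the difference was 0.17 for plasma (voom adjusted p = 0.0745) and 0.10 for PRP (voom adjusted p = 0.304).

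PDCD1LG2 lies 40.0 kb beyond CD274 on chromosome 9 (5510531 to 5571282). Its level was 0.939, 1.19, 1.16 and 0.956 TPM in control, 1.20, 1.25, 1.13 and 1.25 with plasma, and 1.77, 1.21, 0.908 and 1.10 with PRP. PRP library 1 was the highest of all 12, and the groups overlapped. The log2 difference in TPM was 0.10 for plasma (-0.14 to 0.35, adjusted p = 0.488) and 0.11 for PRP (-0.13 to 0.36, adjusted p = 0.424), from 53.0 to 90.0 reads a library. Counted as reads, the difference was 0.26 for plasma (voom adjusted p = 0.241) and 0.25 for PRP (voom adjusted p = 0.238). In CPM plasma libraries (1.64 to 1.82) lay just above control libraries (1.29 to 1.64), with no overlap before rounding. Such a separation was seen in 50.1% of all genes tested with plasma. PRP libraries (1.31 to 2.44) overlapped with control. CD274 exceeded PDCD1LG2 by 2.28 to 3.84 times in TPM across the libraries.

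Neighbouring genes on the same chromosome arm were too few to read against the background. Of 9 listed neighbours 8 were in the files and 4 were tested (JAK2, PLGRKT, RIC1 and ERMP1), and 0 were called against control with plasma or with PRP by limma on TPM, where 49.3% and 53.1% of all genes tested were. Counted as reads, 1 of the 4 was called with plasma and 2 with PRP, beside 56.7% and 60.3% of all genes. JAK2, a kinase of the interferon gamma receptor, averaged 4.34 ± 0.322 TPM (SD, n = 4) in control, against 3.95 ± 0.627 for plasma (adjusted p = 0.448) and 4.05 ± 0.861 for PRP (adjusted p = 0.545).

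Promoter sequence is shown for CD274 and for LGALS9 and VTCN1, which had the largest log2 differences from control among the 9 tested ligands, so that the uncalled and the changed genes can be read side by side. Each is the 250 bases before the gene's start in RefSeq (GRCh38.p14), 5′ to 3′ on the gene's strand, with capitals for motif matches. They lie at chr9:5450292-5450541 (CD274, plus strand), chr17:27630938-27631187 (LGALS9, plus strand) and chr1:117210928-117211177 (VTCN1, minus strand).
CD274: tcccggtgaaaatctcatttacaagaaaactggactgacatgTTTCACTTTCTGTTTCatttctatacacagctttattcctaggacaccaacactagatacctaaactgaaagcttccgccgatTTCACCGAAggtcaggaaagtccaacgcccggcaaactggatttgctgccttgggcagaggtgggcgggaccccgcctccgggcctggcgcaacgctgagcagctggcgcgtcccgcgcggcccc
LGALS9: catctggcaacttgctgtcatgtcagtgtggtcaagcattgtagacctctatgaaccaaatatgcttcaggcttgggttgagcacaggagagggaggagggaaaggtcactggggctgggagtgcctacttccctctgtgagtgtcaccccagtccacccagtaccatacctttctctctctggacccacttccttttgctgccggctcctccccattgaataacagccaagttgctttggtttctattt
VTCN1: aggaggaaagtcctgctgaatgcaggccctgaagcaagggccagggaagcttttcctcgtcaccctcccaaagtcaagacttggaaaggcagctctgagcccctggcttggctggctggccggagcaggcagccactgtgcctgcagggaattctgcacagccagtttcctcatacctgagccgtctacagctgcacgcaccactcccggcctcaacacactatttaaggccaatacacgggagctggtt
The motifs searched on both strands were TTCNNNGAA (GAS, the gamma-activated site), GAAANNGAAA (core of the interferon-stimulated response element), TGANTCA (AP-1), TATAAA and the NF-kB consensus. In the same order they occurred in 6.57%, 3.02%, 6.57%, 10.7% and 9.96% of 35116 promoter windows of this length. CD274 held 1 GAS match, 125 to 117 bases before the start, and 2 overlapping response element cores, 208 to 199 and 202 to 193 bases before it. GAS and response element core occurred together in 0.310% of windows. LGALS9 and VTCN1 held 0 matches to the 5 motifs in these windows, which says only that those letters are not there. A promoter entry was matched for 9 of the 10 genes.

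Among the other B7 ligands VTCN1 rose and CD276 was not called. VTCN1 (B7-H4, chromosome 1, 117143587 to 117210927), an inhibitor of T cell activation found in several carcinomas, was at 11.9, 12.7, 11.7 and 11.4 TPM in control. It reached 17.6, 18.0, 20.5 and 20.2 TPM with plasma and 16.8, 14.8, 15.1 and 18.4 with PRP. Every treated library was above every control library. The log2 difference was 0.63 ± 0.08 (SE, 1.55-fold, adjusted p = 1.29e-05) for plasma and 0.41 ± 0.08 (1.33-fold, adjusted p = 0.000393) for PRP. Reads gave 0.74 and 0.52 (voom adjusted p = 4.24e-06 and 0.000135), and the effective length of its transcripts overlapped between groups (log2 shift 0.00 for both).

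CD276 (B7-H3, chromosome 15, 73683944 to 73714514), the most abundant B7 ligand here, ran from 95.7 to 105 TPM in control libraries, 99.1 to 110.3 in plasma libraries and 93.8 to 107 in PRP libraries. The groups overlapped, with log2 differences of 0.06 (-0.04 to 0.17, adjusted p = 0.285) and 0.01 (-0.10 to 0.11, adjusted p = 0.922). Counted as reads under median-of-ratios scaling it was called as higher, by 0.11 with plasma and 0.09 with PRP (voom adjusted p = 0.0137 and 0.0324). Reads under total-count scaling gave no call (0.08 and 0.06, voom adjusted p = 0.0532 and 0.166). Median centring of TPM also gave a call with plasma (0.12, adjusted p = 0.0182). VTCN1 was 0.117 to 0.122 of CD276 in TPM in control, against 0.160 to 0.204 (plasma) and 0.139 to 0.191 (PRP), so this ratio within each library did not overlap with control. VTCN1 alone was already apart from control while CD276 overlapped, so the separation of the ratio adds no support.

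HHLA2 (B7-H7, chromosome 3, 108296548 to 108378285), a ligand of TMIGD2 and of KIR3DL3, was near the limit of detection. It had 20.8 to 27.0 estimated reads in control libraries, 12.2 to 27.7 in plasma libraries and 8.59 to 18.7 in PRP libraries. In TPM that was 0.359 to 0.485, 0.242 to 0.459 and 0.144 to 0.321, so PRP lay below control and plasma overlapped with both. With PRP 46.8% of all genes tested had groups apart in TPM. A limma fit with no filter, over 17662 genes, called 6257 of them with plasma and 6860 with PRP. For HHLA2 it gave log2(TPM + 1) differences of -0.11 ± 0.06 for plasma (SE, adjusted p = 0.179) and -0.20 ± 0.06 for PRP (adjusted p = 0.0147). That scale understates changes at such levels, and the ratio of mean TPM was 0.564 for PRP.

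NECTIN2 and PVR, the ligands shared by TIGIT and CD226, moved in opposite directions. They lie 180.1 kb apart on chromosome 19 (NECTIN2 at 44846297 to 44889223, PVR at 44643910 to 44666162). NECTIN2 was at 45.5, 42.9, 44.7 and 40.9 TPM in control, 50.4, 50.3, 47.3 and 47.9 with plasma, and 51.0, 48.5, 47.6 and 46.9 with PRP. All treated libraries were above all control libraries. The log2 difference in TPM was 0.17 ± 0.04 (SE, 1.12-fold, adjusted p = 0.00663) for plasma and 0.15 ± 0.04 (1.11-fold, adjusted p = 0.00993) for PRP. Reads gave 0.26 and 0.22 (voom adjusted p = 2.24e-05 and 0.000109).

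PVR was at 34.2, 37.5, 37.9 and 34.5 TPM in control, 29.6, 32.9, 26.8 and 29.1 with plasma, and 31.0, 33.6, 32.9 and 29.2 with PRP. Treated libraries were all below control, by a margin of 34.2 against 33.6 TPM between the nearest control and PRP libraries. The log2 difference was -0.28 ± 0.06 (SE, adjusted p = 0.00294) for plasma and -0.18 ± 0.06 (adjusted p = 0.0299) for PRP. Reads gave -0.24 and -0.17 (voom adjusted p = 0.000375 and 0.00449). PVR was no longer called with PRP once TPM was median-centred (-0.12, adjusted p = 0.127) or the 3 libraries numbered 1 were left out (-0.20, adjusted p = 0.0631). Nor was it called without control replicate 2 (-0.16, 0.0784), control replicate 3 (-0.16, 0.0788), PRP replicate 1 (-0.17, 0.0632) or PRP replicate 4 (-0.14, 0.0923).

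The ratio of NECTIN2 to PVR does not depend on the scaling of a library. In TPM it was 1.14 to 1.33 in control, against 1.53 to 1.76 (plasma) and 1.44 to 1.64 (PRP). In reads it was 0.75 to 0.85, 1.06 to 1.15 and 0.99 to 1.07. Both measures separated every treated library from every control library. Each gene alone was already apart from control in TPM and in reads scaled to library total, in opposite directions. The separation of the ratio follows from that and adds no support. PVR overlaps CEACAM19 on the same strand in GENCODE 29, and NECTIN2 and PVR each overlap an antisense gene. For CEACAM19 the groups averaged 10.4 ± 0.548 (control), 10.1 ± 1.87 (plasma) and 9.97 ± 0.486 TPM (PRP; SD, n = 4). Reads of the antisense overlaps cannot be told apart unless the counting used strand, on which the sources used here say nothing. Reads in a stretch shared by PVR and CEACAM19 would not be separated by strand.

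**Figure D2:**
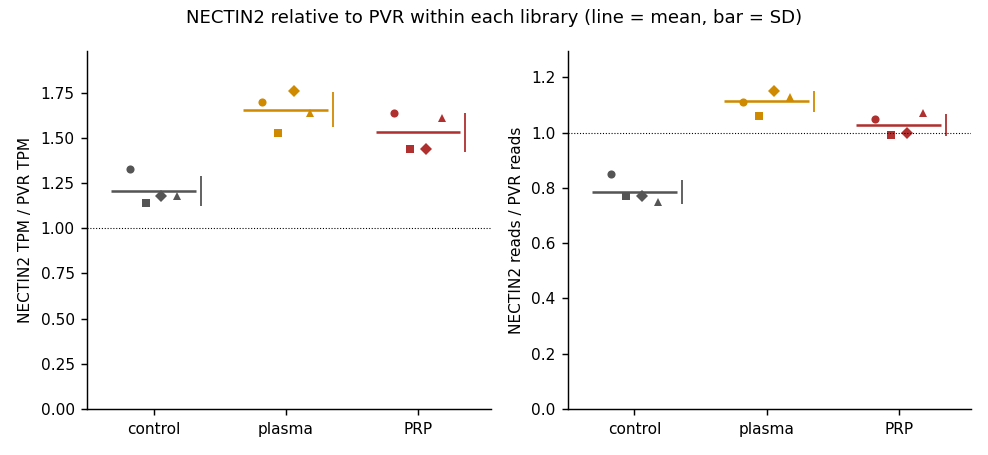
Ratio of NECTIN2 to PVR in each library, from TPM (left) and from estimated reads (right), by group, with marker shape for the library number, a line for the mean and a bar for the SD (n = 4). Control libraries lie at 1.14 to 1.33 in TPM and all treated libraries at 1.44 or more.

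LGALS9 showed the largest change of the 9 tested genes in both treatments. Galectin-9 (chromosome 17, 27631188 to 27649560) is a secreted lectin that crosslinks glycoproteins, TIM-3 among them. Its transcript was at 21.4, 18.7, 20.3 and 23.0 TPM in control, 43.7, 46.6, 40.9 and 40.2 with plasma, and 41.5, 39.0, 38.4 and 40.4 with PRP. The lowest treated library stood at 38.4 TPM and the highest control at 23.0. The log2 difference was 1.01 ± 0.06 (SE, 2.01-fold, adjusted p = 4.27e-08) with plasma and 0.90 ± 0.06 (1.87-fold, adjusted p = 7.65e-08) with PRP. Reads gave 0.98 and 0.84 (voom adjusted p = 4.6e-08 and 1.98e-07). Its share of the summed TPM of the 10 genes was 5.38% to 6.76% in control libraries, 11.0% to 11.5% in plasma libraries and 10.1% to 11.0% in PRP libraries. The higher share follows from the TPM of LGALS9 itself and adds no support.

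Other checks bear on the LGALS9 reads. The near-identical copies LGALS9B and LGALS9C can exchange reads with it, so the split between them is uncertain. LGALS9B fell with plasma, from 1.67 ± 0.184 to 0.989 ± 0.337 TPM (limma adjusted p = 0.0277), and was 1.57 ± 0.529 with PRP (adjusted p = 0.692). LGALS9C was 5.55 ± 1.15, 4.55 ± 0.646 and 4.24 ± 0.982 TPM (SD, n = 4; adjusted p = 0.212 and 0.0777), and neither copy was called as higher. These copies were examined after the values of LGALS9 were seen. The effective length of LGALS9, the part of its transcripts that reads can start from, shifted by -0.11 with plasma and -0.17 with PRP on the log2 scale, with overlapping groups.

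**Figure D3:**
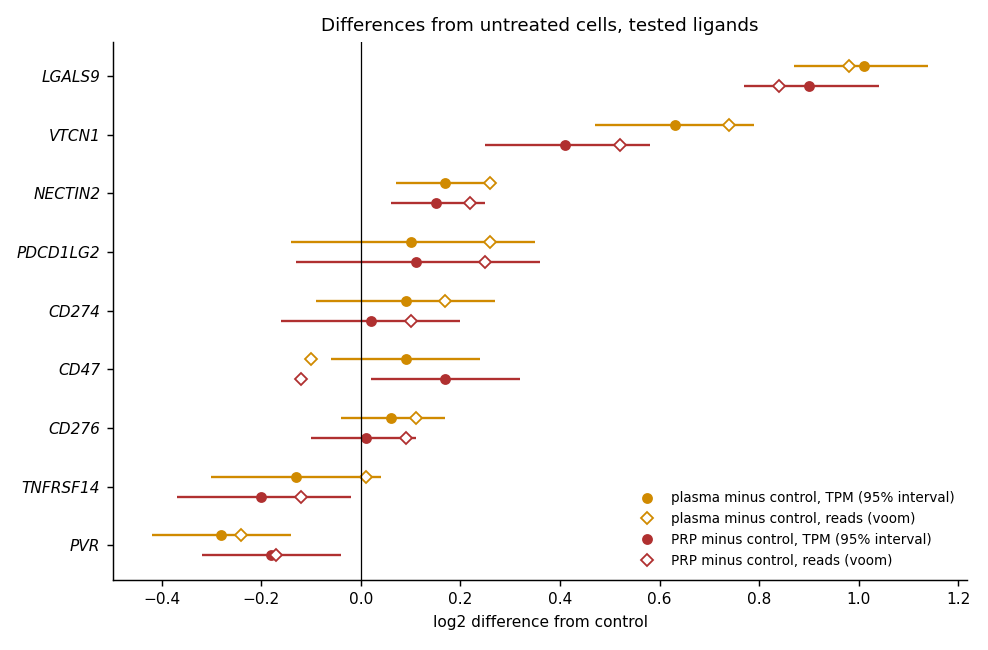
Log2 difference from control for the 9 tested ligands with plasma (orange) and PRP (red), as limma estimates on log2(TPM + 1) with 95% intervals (filled) and as voom estimates on reads (open diamonds). LGALS9 lies at 1.01 and 0.90 in TPM and at 0.98 and 0.84 in reads, and CD47 is the gene whose filled and open symbols fall clearly on opposite sides of 0.

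CD47 gave opposite directions in reads and in TPM. CD47 (chromosome 3, 108043091 to 108091031), the signal that restrains uptake by macrophages, took 179.5, 182, 187 and 188 CPM (estimated reads scaled to library total) in control. It took 177, 179, 163 and 155 with plasma and 162, 164, 170.4 and 163 with PRP, all below control, a separation seen in 50.1% and 53.0% of all genes tested. Its effective length was 2452, 2537, 2638 and 2432 bases in control, 2146, 1977, 2245 and 2051 with plasma and 2013, 1960.3, 1859.9 and 1969.9 with PRP. Every treated library was thus shorter than every control library. TPM, which divides reads by that length, was 115, 114, 109 and 118 in control, 129.8, 139, 108 and 111 with plasma and 126, 129, 136 and 121 with PRP. Plasma libraries fell on both sides of control, and PRP libraries lay above it.

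The log2 difference of CD47 in TPM was 0.09 for plasma (-0.06 to 0.24, adjusted p = 0.283) and 0.17 for PRP (0.02 to 0.32, adjusted p = 0.051). In reads it was -0.10 for plasma (voom adjusted p = 0.0611) and -0.12 for PRP (voom adjusted p = 0.0239). Under total-count scaling the reads gave -0.13 and -0.16 (voom adjusted p = 0.0163 and 0.00442). On TPM, median centring gave a call as higher with PRP (0.23, adjusted p = 0.0059), as did a fit of only the 8 libraries compared (0.17, adjusted p = 0.00814). Of 21 alternatives 10 gave a call with PRP, lower in the 2 from reads and higher in 8 from TPM. No direction is therefore given for CD47. The log2 shift in effective length was -0.26 with plasma and -0.37 with PRP. Groups were apart in effective length in 7.28% of all genes tested with plasma and 8.02% with PRP. A shift at least as large with groups apart occurred in 101 genes (0.807%) and 52 genes (0.415%). The mean transcript length given by the files was 2705 to 2901 bases in control libraries, 2238 to 2512 in plasma libraries and 2137 to 2277 in PRP libraries. GENCODE 29 lists 5 protein-coding CD47 transcripts of 469 to 5225 bases. The files give 1 length a gene and not the transcripts, so which transcripts changed was not measured here.

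**Figure D4:**
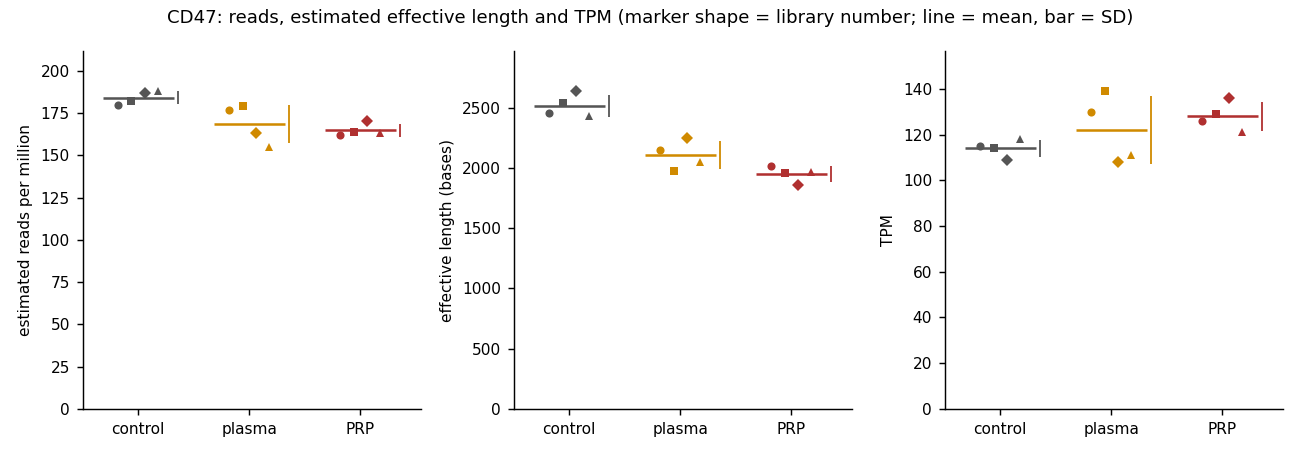
CD47 in each library as CPM of estimated reads (left), effective length in bases (middle) and TPM (right), by group, with marker shape for the library number, a line for the mean and a bar for the SD (n = 4). Reads and effective length are lower in all treated libraries than in control, while TPM is not.

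TNFRSF14 (chromosome 1, 2554234 to 2563829), a receptor of the TNF family that acts as the ligand of BTLA, was not called. It overlaps an antisense gene in GENCODE 29. It ran from 11.1 to 12.4 TPM in control libraries, 9.51 to 11.5 in plasma libraries and 9.00 to 11.3 in PRP libraries, with overlap in both comparisons. The log2 difference was -0.13 for plasma (-0.30 to 0.04, adjusted p = 0.198) and -0.20 for PRP (-0.37 to -0.02, adjusted p = 0.0538). Among 21 alternative analyses PRP was called as lower in 5, and reads gave 0.01 for plasma and -0.12 for PRP (voom adjusted p = 0.958 and 0.333).

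PRP and plasma were compared directly. Of the 9 tested ligands 0 were called by limma, where 0.0639% of all genes tested were, and 0 by voom on reads (0.0959% of all genes). Their TPM overlapped for all 9, where 5.22% of all genes had groups apart. At an unadjusted p under 0.05 there was 1, VTCN1, against 7.98% of all genes tested. Its log2 difference was -0.22 (-0.38 to -0.06, limma adjusted p = 0.462), with PRP library 4 inside the plasma range. LGALS9 differed by -0.10 (-0.24 to 0.03), PVR by 0.10 (-0.04 to 0.23), NECTIN2 by -0.01 (-0.11 to 0.08) and CD274 by -0.06 (-0.24 to 0.12). These intervals bound the difference between the treatments and do not show that they act alike.

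Receptors of these ligands were examined in the same cells. PDCD1, CD80, KIR3DL3 and TIGIT had 0 reads in all 12 libraries, and CD226 at most 26.0. SIRPA, the CD47 receptor, was the most abundant of 12 and rose from 4.80 ± 0.344 TPM to 7.29 ± 0.247 with plasma and 8.65 ± 0.681 with PRP (SD, n = 4, adjusted p = 4.98e-05 and 1.7e-06). CD96 and HAVCR2 (TIM-3) were the other receptors tested. They were not called against control and reached at most 1.94 and 1.12 TPM.

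Related gene lists were counted against the share of all genes tested, which was 49.3% called with plasma and 53.1% with PRP. Of the interferon and JAK-STAT genes that lead to PD-L1, 52.9% and 47.1% were called, near those shares. Of 17 tested genes 6 were higher and 3 lower with plasma, and 6 higher and 2 lower with PRP. IRF1, which activates CD274 transcription, went from 45.1 ± 4.08 TPM to 69.7 ± 5.95 with plasma and 70.8 ± 5.76 with PRP (SD, n = 4, adjusted p = 1.67e-05 and 9.53e-06). The receptor chain IFNGR2 rose from 73.6 ± 1.77 to 93.1 ± 3.02 and 93.8 ± 0.997 TPM. The kinase TYK2 fell from 35.7 ± 3.73 to 29.0 ± 0.582 and 28.4 ± 0.985 TPM, and the phosphatase PTPN2, which opposes JAK signalling, from 131 ± 5.37 to 117 ± 3.46 and 116 ± 1.71 TPM. In TPM the log2 difference of TYK2 was -0.29 with plasma and -0.32 with PRP, and in reads -0.09 and -0.10 (voom adjusted p = 0.0412 and 0.0269). PTPN2 was -0.16 and -0.17 in TPM, and -0.04 and -0.09 in reads (voom adjusted p = 0.407 and 0.0387).

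Of 12 other transcription regulators that act at CD274, plasma raised 2 and lowered 5, and PRP raised 2 and lowered 6. That is 58.3% and 66.7% called, beside 49.3% and 53.1% of all genes tested. BCL3, a nuclear cofactor of NF-kB, rose from 19.7 ± 1.73 to 38.1 ± 4.59 and 38.7 ± 1.93 TPM, and NFKB1 from 27.4 ± 1.18 to 32.5 ± 3.82 and 32.6 ± 2.36. The AP-1 subunits FOSL1 and JUN fell, FOSL1 from 124 ± 35.9 to 48.7 ± 9.99 and 51.8 ± 8.02 TPM and JUN from 41.1 ± 4.51 to 30.7 ± 2.22 and 28.6 ± 1.74. CD274 itself was not called in either comparison.

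Genes that handle PD-L1 protein gave 3 higher and 4 lower of 17 with plasma (41.2% called), and 4 and 4 with PRP (47.1%). On TPM these shares lie below the 49.3% and 53.1% of all genes tested. From reads, voom called 11 of the 17 with plasma and 10 with PRP, beside 56.7% and 60.3% of all genes tested. CMTM6, which keeps PD-L1 at the cell surface, fell from 102 ± 2.12 to 91.2 ± 2.24 and 93.1 ± 1.86 TPM (adjusted p = 0.00087 and 0.00309), though reads gave no call with PRP (voom adjusted p = 0.113). The ubiquitin ligase subunit CUL3 fell from 78.6 ± 1.84 to 62.4 ± 3.75 and 62.3 ± 1.62 TPM. B3GNT3, a glycosyltransferase of PD-L1, fell from 55.1 ± 4.86 to 47.4 ± 2.61 and 38.5 ± 2.61 TPM, by -0.50 on the log2 scale with PRP (-0.33 in reads). The sheddase ADAM10 rose from 435 ± 11.3 to 519 ± 18.3 and 522 ± 14.3 TPM, and the deubiquitinase OTUB1 from 131 ± 1.84 to 159 ± 6.83 and 156 ± 7.81.

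Around CD47, 2 of 5 genes rose and 1 fell in each treatment (60.0% called, beside 49.3% and 53.1% of all genes tested). CALR, a pro-phagocytic signal when exposed at the surface, rose from 583 ± 26.6 to 754 ± 10.4 and 774 ± 7.02 TPM. THBS1, a secreted CD47 ligand, fell from 47.9 ± 8.72 to 36.4 ± 6.82 and 34.9 ± 6.34 TPM (adjusted p = 0.0462 and 0.0227). QPCTL, which modifies the CD47 terminus that SIRPA binds, was 8.56 ± 0.781, 7.28 ± 0.791 and 7.61 ± 1.14 TPM and was not called, while its relative QPCT rose from 3.93 ± 0.571 to 7.27 ± 0.487 and 7.17 ± 1.08 TPM.

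Other ligands that immune cells read were mixed in direction. Of 11 further inhibitory ligands plasma raised 4 and lowered 4 (72.7% called), and PRP raised 2 and lowered 5 (63.6%). Of all genes tested 49.3% were called with plasma and 53.1% with PRP. LGALS3 rose from 484 ± 38.5 to 565 ± 31.9 and 585 ± 10.3 TPM, and VSIR (VISTA) fell from 71.2 ± 4.32 to 57.4 ± 1.09 and 52.4 ± 0.985. BTN2A2 fell from 24.9 ± 1.43 to 16.1 ± 0.625 and 16.1 ± 1.57 TPM. CD24 rose with plasma, from 369.6 ± 29.7 to 434 ± 14.0 TPM, and was 385 ± 25.3 with PRP (adjusted p = 0.385), where reads called it as higher (0.14, voom adjusted p = 0.0382). Among 7 costimulatory ligands plasma raised 2 and lowered 4, and PRP raised 3 and lowered 4. TNFSF9, the ligand of 4-1BB, fell from 45.7 ± 2.24 to 25.2 ± 1.74 and 27.0 ± 1.98 TPM, and ICOSLG rose from 7.84 ± 0.840 to 12.1 ± 1.56 and 11.3 ± 0.405. ICAM1 rose from 23.0 ± 1.85 to 29.3 ± 4.21 and 27.9 ± 1.51 TPM. CD58 fell from 36.0 ± 2.14 to 30.0 ± 1.57 and 31.9 ± 0.929 TPM, without a call in reads (voom adjusted p = 0.108 and 0.936).

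Of 9 ligands that activate natural killer cells 1 rose and 3 fell in each treatment (44.4% called, beside 49.3% and 53.1% of all genes tested). MICA fell from 63.7 ± 2.60 to 45.0 ± 1.28 and 48.5 ± 1.91 TPM and ULBP2 from 35.8 ± 4.49 to 23.2 ± 1.38 and 24.4 ± 0.735, while RAET1G rose from 8.29 ± 0.778 to 10.9 ± 1.18 and 11.9 ± 1.51. Among 3 tested relatives of NECTIN2, NECTIN1 and NECTIN4 rose in both treatments (66.7% called in each). NECTIN1 went from 54.9 ± 1.22 to 71.0 ± 5.01 and 74.7 ± 6.06 TPM and NECTIN4 from 15.2 ± 2.21 to 19.3 ± 0.538 and 18.6 ± 0.737. Of 4 immunosuppressive enzymes 1 rose and 2 fell in each treatment (75.0% called, beside the same 49.3% and 53.1%). IDO1, an interferon-inducible enzyme of tryptophan breakdown, went from 0.660 ± 0.251 to 1.75 ± 0.275 and 1.49 ± 0.229 TPM, or by log2 differences of 0.73 and 0.59 on log2(TPM + 1) and 1.43 and 1.20 in reads. It had 19.9 to 83.8 reads a library and 0.503 to 1.03 TPM in control. IDO1 thus passed the filter of 1 TPM through the treated groups, which favoured a call as higher, and the 75.0% includes it. NT5E (CD73) fell from 101 ± 8.97 to 75.2 ± 2.98 and 73.3 ± 4.48 TPM and PTGS2 from 5.28 ± 0.518 to 3.42 ± 0.398 and 3.78 ± 0.291.

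The genes whose library-to-library pattern was most like that of CD274 were sought among 10230 genes averaging at least 5 TPM. Likeness was the Pearson correlation of deviations from group means over 12 libraries, which share depth and preparation. TRPS1 and MAB21L3 (each r = 0.97), AP4E1 (0.96), GSE1 and NFE2L2 (each 0.95) ranked highest. Among the ligands PDCD1LG2 (0.55) and NECTIN2 (0.48) came closest. These are descriptions of 12 values picked as the highest of many.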

How the data were processed

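RNA of 12 libraries (4 control, 4 plasma, 4 PRP) was quantified by the authors. The submitters' processing notes name Salmon (no version) and the build hg38. The deposited tables give, per the file headers, length, effective length, TPM and estimated count (reads) for 20375 genes. They use a decimal comma. TPM recomputed from reads and effective length matched the deposited TPM within 1% plus 0.01 TPM for 20375 of 20375 genes. The sources used here do not give the strand setting.

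Here, limma 3.58.1 (R 4.3.3) was fitted to log2(TPM + 1) of 12517 genes that reached 1 TPM in 4 or more libraries, as a group-means model (9 residual degrees of freedom), two-sided, with Benjamini-Hochberg adjustment over all genes tested. A fold on this scale understates changes of low genes. Reads were tested with limma's voom under median-of-ratios or total-count scaling. The fitting functions were tested on simulated data. For a gene with 0 reads the limit in the smallest library was 0.0827 CPM (3 reads), for counting error only.

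The ligands, gene lists and naming rule were chosen with earlier results of these data known. All 10 ligands are described. From each related list up to 2 called genes a direction, with the smallest adjusted p and at least 1 TPM, are named, plus JAK2, IRF1, CMTM6 and QPCTL; a further gene under this rule is not reported here. LGALS9B, LGALS9C and CEACAM19 were added after values were seen. Promoters and positions are from RefSeq (GRCh38.p14) and overlaps from GENCODE 29, matched by symbol. No protein sequence was used here.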

Additional observations from a re-analysis of the deposited data

Results flagged for a closer look

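Of 60 groups of 4 values examined (TPM and effective length of the 10 ligands in each group) 1 had a library set apart from the other 3, fewer than the 3 that chance gives on average. It was the effective length of CD274 in control replicate 3, at 3369.8 bases beside 3359 to 3360.1 in the others. CD274 in that library was at 3.17 TPM, the lowest of its group.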

How the results depend on the processing

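LGALS9, VTCN1 and NECTIN2 were called as higher than control in 21 of 21 alternatives with plasma and with PRP. PVR was called as lower in 21 of 21 with plasma and 15 of 21 with PRP. With plasma 4 ligands were called when any 1 library was left out, and with PRP 3 to 6. No ligand was called between PRP and plasma in any alternative (0 in each). The count of all genes called between PRP and plasma was 8. It was 4 with no filter, 13 from reads under total-count scaling, 16 with only the 8 libraries compared, 1 without the 3 libraries numbered 1, and 4 to 14 when 1 library was left out (4 without plasma replicate 4 or PRP replicate 2, 5 without plasma replicate 2 or PRP replicate 3, 14 without control replicate 1). The cause was not tested. The share of lower genes among all calls against control was 58.8% with plasma and 59.2% with PRP as deposited, and 45.9% and 46% after median centring.

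Signs turned for uncalled values near 0 and for CD47. From reads under median-of-ratios and total-count scaling, CD47 was -0.10 and -0.13 with plasma, -0.12 and -0.16 with PRP and -0.02 and -0.03 between PRP and plasma. PDCD1LG2 between PRP and plasma was -0.00 and -0.01 on the same measures, and TNFRSF14 with plasma was 0.01 under median-of-ratios scaling. Without the libraries numbered 1 the PRP difference from control was -0.01 for CD274, -0.02 for PDCD1LG2 and -0.02 for CD276, and PDCD1LG2 between PRP and plasma was -0.09. Leaving out 1 library gave -0.03 to 0.05 for CD274 and -0.02 to 0.04 for CD276 with PRP against control, and -0.09 to 0.09 for PDCD1LG2 and -0.04 to 0.00 for NECTIN2 between PRP and plasma. The cause was not tested.

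The labels do not say what libraries of the same number share. Correlations of their deviations from the group means ran from -0.067 (control 2 with plasma 2) to 0.304 (plasma 1 with PRP 1). All but the lowest were positive. Pairs of different number in different groups ran from -0.220 (plasma 1 with PRP 4) to 0.203 (control 2 with plasma 1). Whether libraries of the same number share a factor was not tested. With the replicate block 6600, 7105 and 9 genes were called, against 6173, 6652 and 8, and of the ligands CD47 gained a call with PRP (0.17, adjusted p = 0.0483).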
